A study of Drosophila melanogaster with 8 samples.

Results

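In order to describe Da at the promoters of RNA genes that encode no protein, the ChIP-seq regions of 3xFLAG-Da at starts of long non-coding RNA (lncRNA) and antisense RNA (asRNA) genes were taken from adult Drosophila melanogaster heads. Overlapping peaks of both 3xFLAG-Da lists were merged into 7237 shared regions, and 588 of these that touched a Control peak were set aside (8.12%), which left 6649 regions. The members were chosen by these measured peaks and by gene models: the summit had to lie within 1000 bp of a transcript start of a lncRNA or asRNA gene, with no transcript start of a protein-coding gene within 1000 bp. This gave 149 of the 6649 regions. The nearest start belonged to a lncRNA gene in 133 and to an asRNA gene in 16. A further 252 regions had a lncRNA or asRNA start in range together with a protein-coding start and were left out.

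The 3xFLAG-Da flies carry 3xFLAG on the endogenous Da protein, and the Control flies are of the white* line, which has no FLAG sequence and in whose background the tagged line was made. Heads of flies aged 1 to 3 days, males and females pooled, were precipitated with the same anti-FLAG antibody (F1804), with 2 libraries per genotype, each with its own input library. Whole heads hold neurons together with glia, eye, muscle, fat body and cuticle, so a region cannot be assigned to a cell type. The 3xFLAG-Da lists held 10915 and 8745 peaks and the Control lists 453 and 707. The depth differed in the same direction: the coverage recovered from the peak statistics was 9.36 and 4.17 fragments per position in the 3xFLAG-Da libraries, against 1.92 and 1.72 in Control.

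Daughterless (Da) is the only class I basic helix-loop-helix protein of the fly and the counterpart of mammalian E-proteins such as TCF4. It binds the hexamer CANNTG, the E-box, as a homodimer or together with class II proteins such as the proneural factors. LncRNAs are transcribed by RNA polymerase II like messenger RNAs, and some are the primary transcripts from which microRNAs are cut. An asRNA gene overlaps another gene on the opposite strand, and some such transcripts affect the gene they overlap.

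The sequence around the summit is shown first, because it was not used to choose the regions. The windows below, from Release 6 of the genome (BDGP6), reach 50 bp to either side of the summit of replicate 2 and are written along the plus strand. Capitals mark each CAGCTG, each CAGGTG and each CAGATG. On the other strand CAGGTG reads as CACCTG and CAGATG reads as CATCTG. They belong to the 4 strongest regions with a CAGCTG, to regions with several copies, and to named transcripts with another E-box.
lncRNA:let7C, chr2L:18455767-18455867: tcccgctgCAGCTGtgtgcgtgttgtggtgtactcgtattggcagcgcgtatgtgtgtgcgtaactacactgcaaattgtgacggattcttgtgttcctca
lncRNA:CR46208, chr2L:9668953-9669053: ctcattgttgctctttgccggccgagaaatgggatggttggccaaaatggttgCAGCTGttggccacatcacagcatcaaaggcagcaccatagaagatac
lncRNA:CR43459, chr3R:10093827-10093927: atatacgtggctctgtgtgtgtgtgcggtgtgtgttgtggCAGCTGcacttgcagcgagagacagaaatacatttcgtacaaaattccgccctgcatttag
lncRNA:CR45393, chr3L:17947508-17947608: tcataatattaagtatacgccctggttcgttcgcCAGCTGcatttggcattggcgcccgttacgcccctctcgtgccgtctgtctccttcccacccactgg
lncRNA:CR43974, chr3L:8083809-8083909: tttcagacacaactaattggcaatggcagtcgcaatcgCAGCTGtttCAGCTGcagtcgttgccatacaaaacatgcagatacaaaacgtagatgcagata
lncRNA:CR45433, chr3L:19861341-19861441: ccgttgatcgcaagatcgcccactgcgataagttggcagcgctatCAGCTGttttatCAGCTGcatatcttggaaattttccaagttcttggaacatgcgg
lncRNA:CR46035, chr3R:17703043-17703143: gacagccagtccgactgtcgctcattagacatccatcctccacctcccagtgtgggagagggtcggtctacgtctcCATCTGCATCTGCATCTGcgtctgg
lncRNA:noe, chr3L:17400663-17400763: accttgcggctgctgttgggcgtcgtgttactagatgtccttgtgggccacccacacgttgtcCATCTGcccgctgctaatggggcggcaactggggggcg
asRNA:PS4, chr3R:16720101-16720201: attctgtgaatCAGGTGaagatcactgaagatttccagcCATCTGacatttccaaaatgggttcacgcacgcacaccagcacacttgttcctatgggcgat

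LncRNA:let7C (FBgn0263049), lncRNA:CR46208 (FBgn0267927), lncRNA:CR43459 (FBgn0263413) and lncRNA:CR45393 (FBgn0266942) each had 1 CAGCTG in the window. LncRNA:CR43974 and lncRNA:CR45433 had 2 copies each, and lncRNA:CR46035 had 3 adjacent copies of CAGATG, in an intron of osa, which encodes a subunit of the Brahma chromatin remodelling complex. The summits of the replicates lay 761 bp apart at lncRNA:CR46035 and 928 bp apart at lncRNA:noe, so these windows do not show the replicate 1 summit. Both summits were within 100 bp of each other in 102 of the 149 regions. Of the 10 strongest regions, 4 held a CAGCTG and lncRNA:CR44339 a CAGATG. None of the 3 E-boxes was found in others of the 10, as the windows of lncRNA:CR44854 (FBgn0266148), lncRNA:CR45899 (FBgn0267559) and lncRNA:CR43431 (FBgn0263379) show, each all in lower case.
lncRNA:CR44854, chr2L:14558983-14559083: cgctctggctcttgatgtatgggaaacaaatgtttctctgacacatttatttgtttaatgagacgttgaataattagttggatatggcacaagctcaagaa
lncRNA:CR45899, chr3R:7000925-7001025: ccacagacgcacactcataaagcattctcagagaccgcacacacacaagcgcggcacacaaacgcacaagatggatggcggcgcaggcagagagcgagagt
lncRNA:CR43431, chr3L:12653298-12653398: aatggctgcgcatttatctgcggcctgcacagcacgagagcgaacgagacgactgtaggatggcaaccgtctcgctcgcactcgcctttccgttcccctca

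To see whether E-boxes were concentrated at the summits, the windows of all 149 regions were compared with 298 windows shifted by 250 bp to either side. At 28 of the 149 summits a CAGCTG was found within 50 bp (18.8%, 95% Wilson interval 13.3 to 25.8%) and in 3.69% of the shifted windows, an odds ratio of 6.04 (95% interval 2.91 to 12.5, two-sided Fisher's exact test, adjusted p = 3.61e-06 over the 10 E-boxes). CAGGTG was found in 14 regions (9.40%) against 3.02% of shifted windows (odds ratio 3.33, 95% interval 1.41 to 7.88, Fisher's exact adjusted p = 0.0297). CAGATG, in 12 regions (8.05% against 3.02%), and CAGTTG, in 18 regions (12.1% against 5.70%), had odds ratios of 2.81 and 2.27 and did not pass the adjustment, with Fisher's exact adjusted p = 0.0750 for both. The other 6 E-boxes did not pass either, among them CACGTG, found in 3 regions. Over all 6647 regions with sequence, CAGCTG was found at 14.8% of summits, CAGGTG at 8.26% and CAGATG at 6.15%. CAGCTG together with CAGGTG and with CAGATG is the set of E-boxes the study chose on these same libraries, so their count is not independent evidence of a preference: at least 1 of these 3 was within 50 bp in 47 regions (31.5%, 95% interval 24.6 to 39.4%) and in 9.40% of shifted windows (odds ratio 4.44, 95% interval 2.64 to 7.48, Fisher's exact p = 1.37e-08). The shifted windows neighbour the summits, but their base composition was not measured. The summit window and the shifted windows of a region are matched. Fisher's exact test treated all windows as independent and left this pairing out. The regions, not flies, are the units of these tests.

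The 31 CAGCTG copies in the 28 regions lay at a median of 19 bp from the summit, and 19 of them within 25 bp. No comparison with an even spread over the window was made, so these values do not show centring on the summit. Combinations of the preferred E-boxes were rare, with 7 regions holding 2 or more different ones. LncRNA:CR45204, in the Imp gene (an RNA-binding protein of the IGF2BP family), held CAGCTG and CAGGTG. LncRNA:CR46060, in an exon of Cipc, held CAGCTG directly beside CAGATG. No CANNTG at all was present within 50 bp in 58 regions. By peak strength, with no test, 14 of the 74 stronger regions (18.9%) and 14 of the 75 weaker ones (18.7%) had a CAGCTG. At least 1 of the 3 E-boxes was present in 26 of the stronger regions (35.1%, 95% interval 25.2 to 46.5%) and in 21 of the weaker ones (28.0%, 95% interval 19.1 to 39.0%), intervals that overlap.

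Compared with the 4439 regions at protein-coding promoters, the lncRNA and asRNA promoter regions carried the 3 E-boxes in 31.5% against 24.9%, an odds ratio of 1.39 (95% interval 0.978 to 1.98) that did not pass the test (Fisher's exact adjusted p = 0.171 over 20 comparisons of elements). Counting any CANNTG, the shares were 61.1% and 49.6% (odds ratio 1.59, 95% interval 1.14 to 2.23, Fisher's exact adjusted p = 0.0300). Against regions over 2000 bp from any transcript start, of which 1409 had sequence, the odds ratio was 0.998 for the 3 E-boxes (95% interval 0.694 to 1.44) and 1.00 for any CANNTG (0.708 to 1.42). Thus, a difference in E-boxes from the far regions was not detected, and the intervals allow odds ratios from about 0.7 to 1.4. Across all 6647 regions with sequence, 26.8% held at least 1 of the 3 E-boxes and 53.3% any CANNTG. The median GC content of the 301 bp around the summit was 47.8% at the lncRNA and asRNA promoters, 44.9% at the protein-coding promoters and 47.2% far from starts, and its part in these differences was not tested.

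Next, known promoter elements were counted within 150 bp of the summit, on both strands. These windows were centred on the summit and not on the start. The median distance between the 2 was 292 bp, against 75 bp for protein-coding promoter regions. At the 83 regions with the summit over 250 bp from the start, the window did not reach it. The part of this in the differences below was not tested. The clearest difference from protein-coding promoter regions was the near absence, in these windows, of the elements typical of housekeeping promoters. The DNA replication-related element TATCGATA (DRE), bound by DREF, was present in 1 of the 149 regions (0.671%) against 9.96% of protein-coding promoter regions (odds ratio 0.0611, 95% interval 0.00853 to 0.438, Fisher's exact adjusted p = 0.000135). Motif 1, searched as GGTCACAC, a core promoter element bound by M1BP, was present in 3 regions (2.01%) against 11.1% (odds ratio 0.165, 95% interval 0.0525 to 0.520, Fisher's exact adjusted p = 0.000716). One of these 3 was lncRNA:roX2, and another asRNA:CR45924. The far regions likewise held few, 0.639% with TATCGATA and 0.426% with GGTCACAC, and the differences from them did not pass the test. Over all regions the shares were 6.86% and 7.64%.

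GAGAG, the core of the element bound by the GAGA factor (Trl), was found more often in lncRNA and asRNA promoter regions than in both other classes. It was found in 79 of the 149 regions (53.0%, 95% interval 45.0 to 60.9%), in 39.8% of the protein-coding promoter regions (odds ratio 1.71, 95% interval 1.23 to 2.37, Fisher's exact adjusted p = 0.0106) and in 41.0% of the far regions (odds ratio 1.62, 95% interval 1.16 to 2.28, Fisher's exact adjusted p = 0.0262). Both calls were lost when the search was narrowed to 100 bp each side, with odds ratios of 1.55 and 1.44 (Fisher's exact adjusted p = 0.0546 and 0.116). Against the far regions the call was also lost without 3xFLAG-Da replicate 2 (odds ratio 1.34, Fisher's exact adjusted p = 0.0773). TATAAA, the TATA box, was present in 16.8% against 25.5% at protein-coding promoters and did not pass the adjustment (odds ratio 0.589, 95% interval 0.381 to 0.910, Fisher's exact adjusted p = 0.0539). The initiator core TCAGT was present in 43.6% and 45.0% (odds ratio 0.946, 95% interval 0.681 to 1.32). Over all regions 41.1% held GAGAG and 42.7% TCAGT, and these elements were not compared with shifted windows. A match to such short letters is a description of the sequence and not a bound site.

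**Figure D1:**
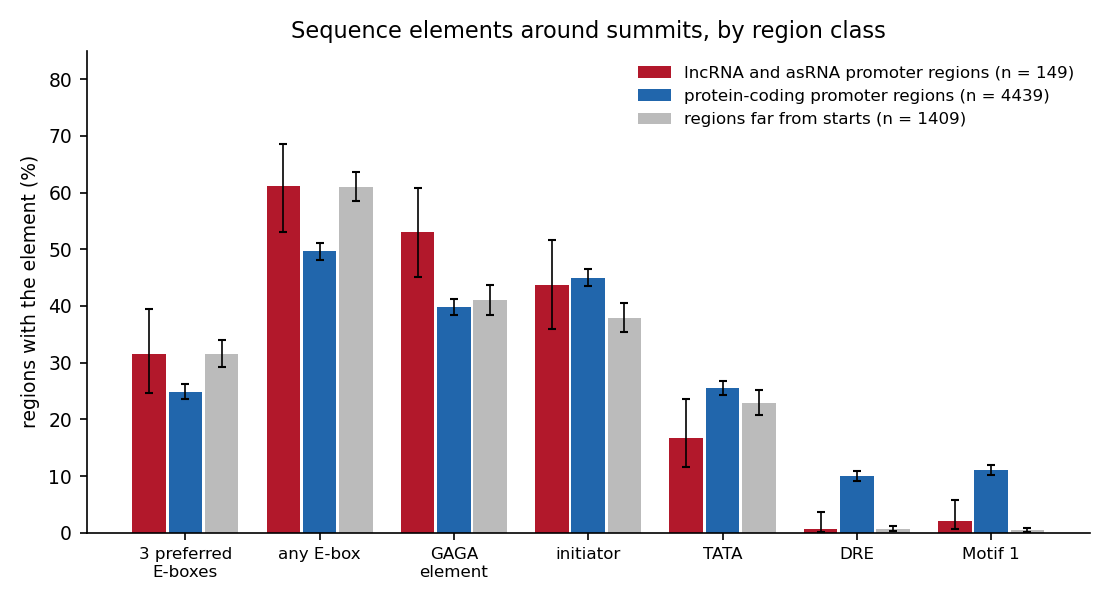
Share of regions (%) with each element at 149 lncRNA and asRNA promoter regions, 4439 protein-coding promoter regions and 1409 regions far from starts. E-boxes were searched within 50 bp and the other elements within 150 bp of the summit, on both strands, and error bars are 95% Wilson intervals; DRE and Motif 1 stood at 9.96% and 11.1% of protein-coding promoter regions and at 0.671% and 2.01% of lncRNA and asRNA promoter regions.

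The height of the regions is given beside that of all others. The fold over local background of the peak, the value that chose the regions and therefore only described, was 1.78 to 14.4 in 3xFLAG-Da replicate 1 (median 4.34, against 4.54 over all 6649 regions) and 2.36 to 18.7 in replicate 2 (median 4.75, against 4.87). The merged regions had a median width of 645 bp, against 624 bp over all. Ranked by the mean of the fold ranks of both lists, 16 lncRNA and asRNA promoter regions were in the best 10% of all regions, 71 in the better 50% of them and 49 (32.9%) in the poorest 25%. The folds of the replicates went together (Pearson r = 0.72 on log2 values, Spearman rho = 0.71 across the 149 regions), close to 0.70 and 0.67 across all regions. These correlations are across regions within the same pair of libraries.

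**Figure D2:**
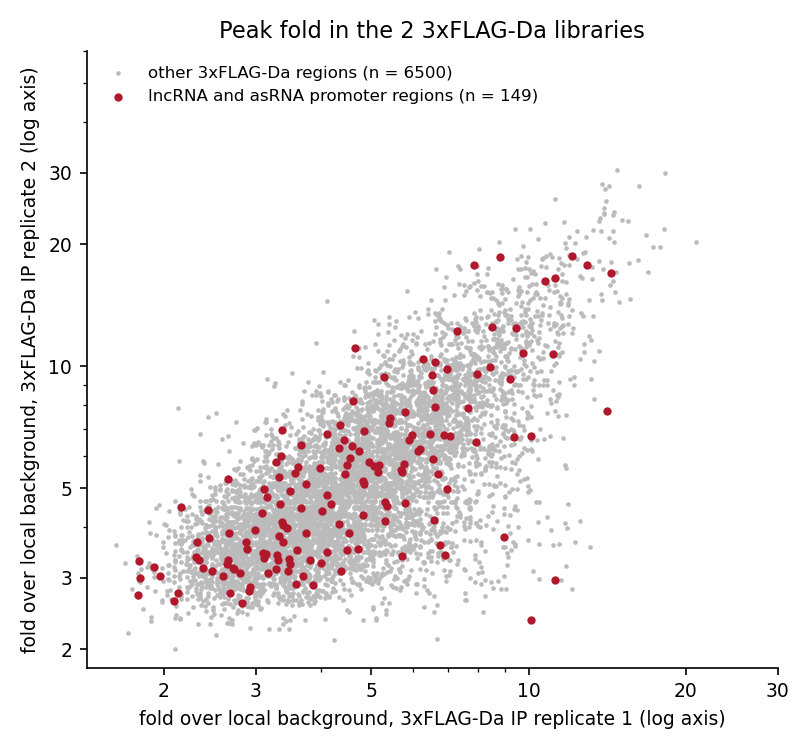
Peak fold over local background in 3xFLAG-Da replicate 1 (x axis) and replicate 2 (y axis), both on log axes, for 149 lncRNA and asRNA promoter regions (red) and the other 6500 regions (grey). The red points lie within the grey cloud, with medians of 4.34 and 4.75. They reach 14.4 and 18.7 in replicates 1 and 2, against 20.9 and 30.4 over all regions.

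The depth of Control limits what absence from it means. From the recovered depths, the chance of a call in at least 1 Control library was computed for regions as high there as in 3xFLAG-Da. It was 0.95 or more for 81 of the 149 regions and below 0.5 for 13. A call was counted from the lowest number of fragments at any Control peak, 9 in both libraries. This is the most lenient limit, so the chances are upper bounds. Before Control was considered 160 regions met the rule, and 11 of these touched a Control peak (8.12% did so over all shared regions). Hsromega, the heat-shock inducible nuclear lncRNA, was among the 11, with folds of 6.67 and 5.75 in 3xFLAG-Da and 5.10 in Control replicate 2. Vinr, an lncRNA with a role in innate immunity, was another, at 6.82 and 6.75 in 3xFLAG-Da and 4.86 in Control replicate 2. At lncRNA:CR44628 and lncRNA:CR45358 the fold in both Control libraries was above that in both 3xFLAG-Da libraries (12.8 and 19.8 against 9.89 and 11.3 for lncRNA:CR44628, and 11.5 and 11.6 against 4.11 and 3.51 for lncRNA:CR45358). A neighbouring region at lncRNA:CR45358 (4.48 and 3.52 in 3xFLAG-Da) touched no Control peak and remained among the 149. The same held for lncRNA:CR43904, with a region of 5.30 and 8.57 set aside and another of 3.11 and 3.35 kept. The strongest of the 11, lncRNA:CR9162, stood at 16.7 and 24.1 in 3xFLAG-Da and at 4.36 in Control replicate 2.

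The distance from the summit to the start, which the rule limited to 1000 bp and which is therefore given without a test, was also described. The median distance was 292 bp, against 75 bp for protein-coding promoter regions, and 66 of the 149 summits (44.3%, 95% interval 36.6 to 52.3%) were within 250 bp of the start, against 81.1% at protein-coding promoters. With regions that had a single transcript start within 1000 bp, so that the number of starts was equal, the shares were 39.7% of 126 and 72.4% of 2255. The 250 bp limit was chosen after the values were seen. Upstream of the start lay 45.6% of the summits, against 53.9%. The label of a promoter region is therefore loose for the 83 regions whose summit was over 250 bp away. How well the start of each lncRNA is annotated was not tested.

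**Figure D3:**
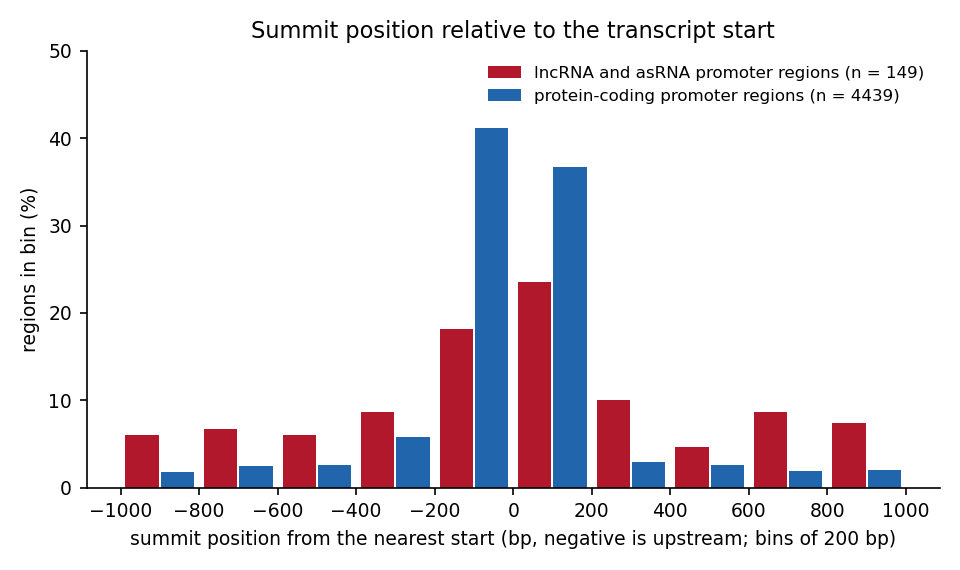
Summit position from the nearest transcript start (bp, negative is upstream, bins of 200 bp) as a share of regions (%), for 149 lncRNA and asRNA promoter regions (red) and 4439 protein-coding promoter regions (blue). The bins on either side of the start held 18.1% and 23.5% of the red regions, against 41.1% and 36.7% of the blue ones, and every outer bin held a larger share of the red.

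To relate the regions to the genes available, the lncRNA and asRNA genes without a protein-coding start within 1000 bp were counted. Of 1721 such genes 152 had a region at a start (8.83%, 95% interval 7.58 to 10.3%), against 25.8% of 7245 protein-coding genes with no other gene's start within 1000 bp. The filters thus differ, since the lncRNA and asRNA genes could have starts of other non-coding genes nearby. A gene counted if any of its transcript starts had a region, and the number of starts per gene was not equalised here. For 140 of the 152 the region was among the 149, and for 12 it was a region with a protein-coding start in range of its summit. The peaks chose these genes, so the shares are a description. Peaks of the single libraries were at 240 and 189 of the 1721 genes in 3xFLAG-Da replicates 1 and 2, and at 10 and 21 (0.581% and 1.22%) in the Control replicates, all of the latter lncRNA genes. By class, 9.26% of 1512 lncRNA genes (95% interval 7.90 to 10.8%) and 5.74% of 209 asRNA genes (3.31 to 9.77%) had a region, and these intervals overlap. Whether the genes with and without a region are transcribed in heads is not known from these data.

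The 149 regions touched 150 lncRNA and asRNA genes within 1000 bp, and 137 had a single such gene in range. By chromosome, 39 were on 2L, 24 on 2R, 33 on 3L, 32 on 3R and 21 on X. The summit was outside protein-coding genes in 100 regions, in an intron of one in 46 and in an exon in 3. In 36 the nearest protein-coding start was within 2000 bp, not far past the limit. Genes with a region and those without were set side by side, without a test. The start lay inside a protein-coding gene in 32.9% of both, a protein-coding gene overlapped on the other strand in 28.9% and 26.6%, and 12.5% and 11.3% were on X. The median gene length was 989.5 bp with a region and 701 bp without, and 21.7% against 12.0% had several transcripts, so that there were more starts at which a region could lie.

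Of the 10 strongest regions 4 were at microRNA host transcripts, a pattern looked for after the values had been seen. The nearest gene held a microRNA on its own strand at 18 of the 149 regions, at 14 genes with 18 microRNA genes inside. Among the 1721 genes, 13 of 32 microRNA hosts had a region (40.6%, 95% interval 25.5 to 57.7%), against 139 of 1689 others (8.23%, 95% interval 7.01 to 9.64%). In the Control libraries 1 and 3 of the 32 hosts had a peak (3.13% and 9.38%), against 0.533% and 1.07% of the others. When genes with 1 transcript were kept, which equalises the number of starts, 3 of 13 hosts (23.1%, 95% interval 8.18 to 50.3%) and 7.80% of 1487 others had a region, and these intervals overlap. No test was made of this difference, since the peaks chose the genes.

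The highest folds of all 149 were at lncRNA:CR43650 (FBgn0263659), which holds mir-8, the fly member of the miR-200 family with roles in growth and in the nervous system. Its regions, at chr2R:16828615-16829332 and chr2R:16830107-16831130, each had its summit about 160 bp upstream of a start (160 and 158 bp). The former had folds of 14.4 and 16.9 and the latter 12.1 and 18.7 in 3xFLAG-Da replicates 1 and 2, ranks 39 and 44 of all 6649 regions. No E-box of any kind lay within 50 bp of either summit. At lncRNA:let7C, the primary transcript of the let-7 complex, which times development and is needed for adult behaviour, the folds were 11.2 and 16.5, with the summit 100 bp downstream of the start and 15617 bp from the nearest microRNA hairpin. LncRNA:CR43459, which holds mir-277 and mir-34, the latter known for a role in ageing of the fly brain, had 8.81 and 18.6 at 116 bp downstream.

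Of the other hosts, bantam, which promotes growth and blocks cell death, lies in lncRNA:CR43334, and the regions at its starts differed widely, at 7.97 and 9.54 for chr3L:627823-628800 and at 2.16 and 4.49 for chr3L:639336-639965. LncRNA:CR43314, the host of bereft (mir-bft, also mir-263a), stood at 6.97 and 9.85, with the summit 21 bp downstream of its start. LncRNA:CR31044, the host of mir-279 and mir-996, which act in sensory neuron development, had 6.70 and 5.43 at 68 bp upstream. LncRNA:CR45361, the host of the muscle microRNA mir-1, had 5.43 and 7.45 at 507 bp upstream. The last by fold rank was lncRNA:CR45910, the host of mir-1000, with 1.97 and 3.04. At a start of lncRNA:CR46006, the host of mir-276a, the folds were 10.1 and 2.36, taken at summits 585 bp apart, while the other region of this gene had 6.88 and 6.75. Over the 18 regions the median fold was 6.20 and 6.54 in replicates 1 and 2, against 4.10 and 4.55 in the other 131 regions. The ranges of both sets overlapped almost completely. The summit was within 250 bp of the start in 13 of the 18, and a CAGCTG within 50 bp in 3, at let7C, lncRNA:CR43459 and lncRNA:CR45920.

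**Figure D4:**
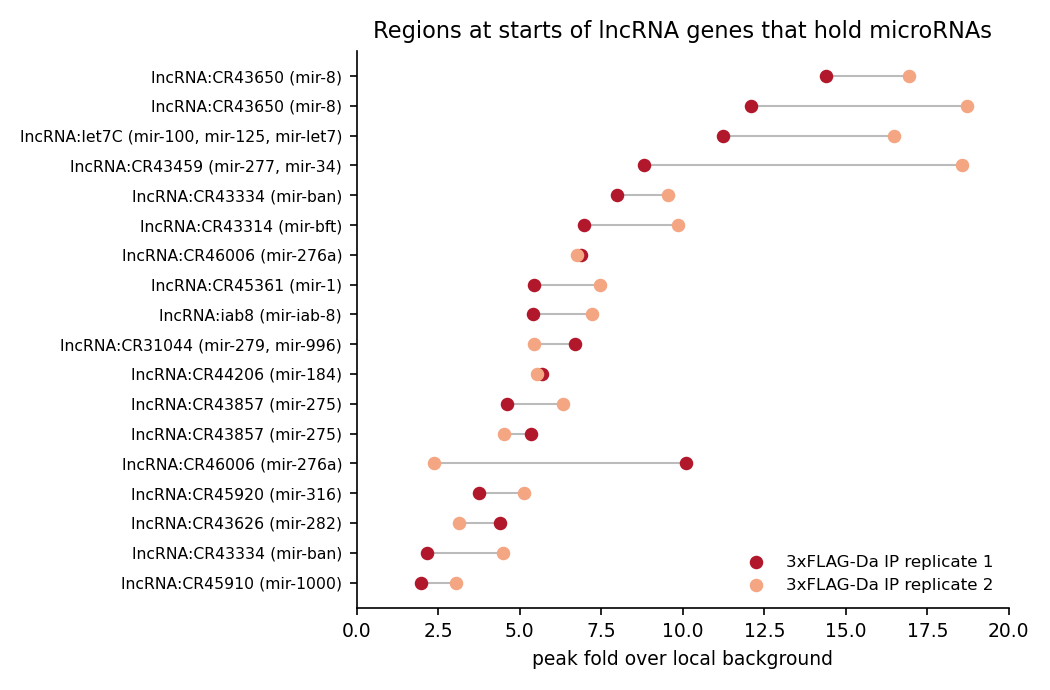
Peak fold over local background (x axis) in 3xFLAG-Da replicate 1 (dark) and replicate 2 (light) for the 18 regions whose nearest lncRNA gene holds a microRNA on its strand, ordered by fold rank, with the microRNAs in parentheses. The folds run from 1.97 to 14.4 in replicate 1 and from 2.36 to 18.7 in replicate 2.

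The mature microRNAs within several of these hosts are shown because they are what the host transcripts yield. The sequences are those of RefSeq for Release 6 of the genome, with the seed (bases 2 to 8) in capitals, and the arm is named by its place in the hairpin.
mir-let7-5p, chr2L:18472044-18472064, plus strand: uGAGGUAGuagguuguauagu
mir-100-5p, chr2L:18471445-18471466, plus strand: aACCCGUAaauccgaacuugug
mir-125-5p, chr2L:18472343-18472364, plus strand: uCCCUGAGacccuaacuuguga
mir-34-5p, chr3R:10100952-10100975, plus strand: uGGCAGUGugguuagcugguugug
mir-277-3p, chr3R:10100080-10100102, plus strand: uAAAUGCAcuaucugguacgaca
mir-ban-3p, chr3L:642259-642281, plus strand: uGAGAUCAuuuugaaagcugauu
mir-bft-5p, chr2L:11953463-11953486, minus strand: aAUGGCACuggaagaauucacggg
mir-1-3p, chr2L:20487496-20487517, plus strand: uGGAAUGUaaagaaguauggag
mir-279-3p, chr3R:29215651-29215672, plus strand: uGACUAGAuccacacucauuaa
mir-996-3p, chr3R:29217244-29217265, plus strand: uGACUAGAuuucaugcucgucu
mir-276a-3p, chr3L:10365281-10365302, plus strand: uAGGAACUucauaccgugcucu

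Of these, mir-279-3p and mir-996-3p share the seed GACUAGA, and the other 9 seeds differ from each other. No microRNA was measured in this experiment, so the host regions say nothing of microRNA levels.

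Among the other strong regions, lncRNA:CR44854 at chr2L:14558514-14559504 had folds of 12.9 and 17.7 in replicates 1 and 2, with the summit 181 bp upstream of the start. LncRNA:CR46208 had a strong region at chr2L:9668281-9669867 (10.7 and 16.2) and a weak one at chr2L:9667637-9667944 (1.91 and 3.19), both with a CAGCTG. LncRNA:CR45393, whose nearest protein-coding start was that of Eip75B, an ecdysone-induced nuclear receptor, stood at 7.86 and 17.8. Replicate 2 gave the higher fold here, as it did in 69.8% of the 149 regions. LncRNA:CR44339 (chr2R:12984695-12985966), 4087 bp from a start of the Polycomb group gene Psc, had 11.1 and 10.7. LncRNA:CR45899, 1747 bp from a start of the Hox gene Antp, had 9.47 and 12.4, and lncRNA:CR43431, with the Iroquois gene mirr as the nearest protein-coding start at 40291 bp, had 9.76 and 10.8. Distance to a start does not show which gene a region acts on.

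Of the 28 CAGCTG regions 9 had the summit in an intron of a protein-coding gene, and a few are given as examples, picked after their values and host genes were seen. These were lncRNA:CR43974 in Sarm, the axon degeneration factor (folds 6.61 and 7.93), and lncRNA:CR42746 in bun, a TSC22 family gene (4.65 and 11.1). A further intronic one was lncRNA:CR43686 in CrebB, the fly CREB (3.75 and 3.86), and another was lncRNA:CR43909 in Amph, the amphiphysin gene (3.62 and 5.62). Outside protein-coding genes, lncRNA:CR45417 had 5.14 and 5.46 and held both CAGCTG and CAGATG. In all, at least 1 of the 3 E-boxes was present in 20 of the 49 regions inside protein-coding genes (40.8%, 95% interval 28.2 to 54.8%) and in 27 of the 100 outside (27.0%, 19.3 to 36.4%), and these intervals overlap. The median folds of the 28 CAGCTG regions were 4.23 and 5.53, against 4.25 and 4.57 in the 102 regions with none of the 3 E-boxes.

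Both roX lncRNAs, which guide the dosage compensation complex to the male X chromosome, had a region close to the start. At roX1 the folds were 4.82 and 4.30, with the summit 50 bp downstream, and at roX2 3.12 and 4.99, with the summit 28 bp upstream. No preferred E-box was within 50 bp at either. LncRNA:iab8, which spans the Bithorax complex between abd-A and Abd-B and holds mir-iab-8, had 5.39 and 7.22. Its replicate 1 peak overlapped both peaks of replicate 2. The start in range was an internal one at chr3R:16899832, while the gene, on the minus strand, begins at 16923231. The summit used lay 767 bp downstream of this internal start, and that of the other replicate 2 peak 30 bp upstream of it. LncRNA:noe, a transcript of the nervous system, had 3.15 and 4.75 at 635 bp downstream, with another replicate 2 peak of 5.35 whose summit lay 302 bp upstream. For iab8 and noe, which of the summits is taken thus sets the position. Of the 149 regions 18 were merged from more than 2 peaks, and their fold in each list is that of the peak with the lowest start.

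**Figure D5:**
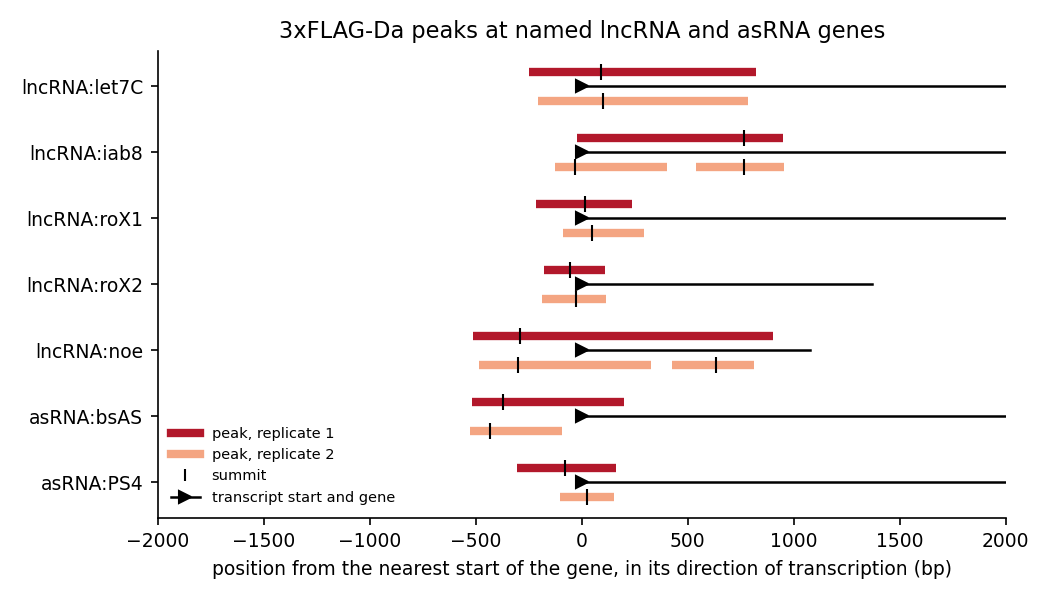
Peaks of 3xFLAG-Da replicates 1 (dark) and 2 (light) at the 7 genes with a name of their own, placed by distance from the nearest transcript start in the direction of transcription (bp), with summits as black ticks and the gene as a line, cut at 2000 bp. Peaks covered the start shown in both replicates at all of these genes but bsAS, where the replicate 2 peak ended upstream of it. The start shown for iab8 is internal to the gene. At iab8 and noe 2 replicate 2 peaks overlapped a single replicate 1 peak, and 1 of the 2 covered the start.

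The 16 regions at asRNA genes had folds of 1.78 to 6.48 in replicate 1 and 2.72 to 6.81 in replicate 2 (medians 3.72 and 5.42), against medians of 4.49 and 4.62 at the 133 lncRNA regions. None of the 10 strongest of the 149 regions was at an asRNA gene. The summit was in an intron in 11 of the 16, a CAGCTG within 50 bp in 2, and one of the 3 E-boxes in 4. First by mean fold rank was asRNA:CR46453 (6.48 and 6.80), antisense to CG12134. It was followed by asRNA:CR42860 (5.79 and 5.75), antisense in the titin-like muscle gene sls, with the summit 44 bp upstream and a CAGGTG, and by asRNA:CR45281 (5.72 and 5.47), which overlaps the phosphatase gene Alp6 and the odorant receptor gene Or45b. AsRNA:CR44052, antisense in the glucocerebrosidase gene Gba1b, had 3.57 and 5.43, and asRNA:CR44512, antisense in Zw, which encodes glucose-6-phosphate dehydrogenase, had 3.36 and 5.99. AsRNA:bsAS, antisense to bs, the fly serum response factor, had 3.44 and 3.98 with the summit 433 bp upstream. AsRNA:PS4, antisense in an intron of the Hox gene Ubx, had 2.60 and 3.04, held CAGGTG and CAGATG, and was so low that the chance of a call at Control depth was 0.362.

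At the limits of the rule, the members just inside 1000 bp of a lncRNA or asRNA start were lncRNA:CR44366 at 966 bp (6.76 and 3.62) and lncRNA:CR43857, a host of mir-275, at 993 bp (5.35 and 4.52). Just outside stood lncRNA:CR45404 at 1020 bp (6.47 and 6.88) and lncRNA:CR46112 at 1028 bp (3.76 and 3.44). On the protein-coding limit, lncRNA:CR45196, in an intron of pum, at 1016 bp (7.95 and 6.49) and asRNA:CR44124 at 1052 bp (4.11 and 3.48) were kept. By contrast, lncRNA:CR44299 at 947 bp (5.68 and 5.60) and asRNA:CR44911 at 996 bp (2.31 and 2.78) were left out. The folds on both sides of each limit were in the same range.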

How the data were processed

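The deposited files were the narrowPeak lists of 4 immunoprecipitated libraries; the 4 input libraries entered through the peak calling by the authors and were not used here otherwise. Per the study's methods and its processing notes, reads were trimmed with BBDuk, mapped to BDGP6 with Bowtie2 2.5.1, filtered with SAMtools 1.12 and peaks called per library against its input with MACS2 2.2.7.1 at a q of 0.05. Each deposited peak has a score, a fold enrichment (ratio) over local background, and a −log10 p and −log10 q value given by the authors' peak caller. No read counts per region were used, so the differential test of the study could not be run; a region is a set of overlapping peaks (at least 1 bp), absent from Control where no Control peak touched it. Depth was recovered from fold and −log10 p with the Poisson model of the caller (pileups matched a whole number within 0.002 in 99.3% to 100% of the peaks of each library). The chance of a call at Control depth took the lowest pileup of any Control peak as the limit, so it is an upper bound.

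Transcript starts came from Ensembl release 115 (BDGP6.54) and sequence from the RefSeq copy of the same assembly, in Python 3.11.15 with SciPy 1.17.1 and NumPy 2.4.6. E-boxes were counted within 50 bp of the summit and other elements within 150 bp. Shares have 95% Wilson intervals, which cover counting error alone, and odds ratios have 95% Wald intervals and two-sided Fisher's exact tests with Benjamini-Hochberg adjustment. The regions of 1 pair of libraries are the units, so p-values do not measure the spread between flies. The method was tested on simulated regions. Named were the 10 regions of best mean fold rank, genes with a name other than CR and digits, the leading regions with CAGCTG and those at asRNA genes, and the neighbours of the limits; microRNA hosts, the regions touching Control, several element-bearing regions in protein-coding genes and the distance limit of 250 bp were added after the values were seen. Members, lists and elements were chosen with earlier results of these data known. The alternatives were stricter peaks, limits, overlaps, windows and summits, and leaving out each library.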

Additional observations from a re-analysis of the deposited data

How the results depend on the processing

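Of 144 values of 12 results under 15 alternatives, 123 left the call and its direction as reported (for shares and counts, within the interval or within 1.5 times). Odds ratios that could not be formed, because no lncRNA or asRNA promoter region held the element, are not among the 144. For TATCGATA this was so with the summit of replicate 1, 50% overlap, the search within 100 bp and regions of 1 peak from each list. For GGTCACAC it was so with regions callable at Control depth. With the summit of replicate 1, the 3 E-boxes differed from protein-coding promoters (odds ratio 1.64, Fisher's exact adjusted p = 0.0238), so that this comparison depends on the summit. Against far regions the odds ratio for the 3 E-boxes crossed 1 without a call, at 1.08 with the summit of replicate 1, 1.11 with 50% overlap and 1.03 with regions of 1 peak from each list, and it ran from 0.924 to 1.01 when a library was left out. The share of clear lncRNA and asRNA genes with a region was 7.38% with stricter peaks, 6.03% with a 500 bp limit, 6.68% with 50% overlap and 4.94% with regions callable at Control depth, and 8.89% to 13.0% with a library left out. There were 81 regions callable at Control depth, and 149 to 228 regions with a library left out, the 228 without 3xFLAG-Da replicate 2. GAGAG lost its call against far regions with a 500 bp limit (1.49) and with a search within 100 bp (1.44), and its odds ratio ran from 1.34 to 1.67 with a library left out; against protein-coding promoters it lost it with the search within 100 bp (1.55). Any CANNTG lost its call against protein-coding promoters with a 500 bp limit (1.52), windows of 100 bp each side (1.60) and regions callable at Control depth (1.49), and ran from 1.40, without 3xFLAG-Da replicate 1 and not called, to 1.86 with a library left out. The causes were not tested, apart from the fewer regions that stricter settings keep by construction. The callable regions, regions of 1 peak, the search within 100 bp and all alternatives for GAGAG, any CANNTG, DRE and Motif 1 were chosen after seeing the data. No paired analysis was made. The summit and shifted windows of a region could have been paired, and Fisher's exact test left this pairing out. Across libraries no paired analysis was possible, because the peak lists give no read count per region and library. The depth of Control limits what absence from it means, and without read counts per region no test over libraries was made.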
